A study of Panax japonicus with 15 samples.

Results

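The subject is 134 transcript clusters of the fruit wall of Panax japonicus that were high in 1 of 5 fruit-colour periods, called G, and lower in the other 4, called B, P, R and Y. They were chosen from 462117 table rows by their own levels: the lowest of the 3 G libraries stood at 5 TPM or more and at no less than 3 times the highest of the 12 other libraries. TPM divides reads by transcript length and scales every library to the same total. Because those values made the selection, the contrast between G and the other periods is described here and not tested. Comparisons among B, P, R and Y do not use the G libraries, and these are tested. The selection did set a ceiling on each member in these 12 libraries, its lowest G level divided by 3.

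Panax japonicus is a ginseng relative grown as a medicinal herb, and the plants came from mountain areas of Guizhou in China. RNA came from pericarp, the fruit wall freed of its seed, in 3 libraries of each period: 15 in all, with the period as the only treatment label and no genotype given. The labels name the periods by letter alone and give no order of them, no age of the fruit and no control. The 3 libraries of a period are called biological replicates, without saying whether they came from separate plants, so the p-values measure the spread between these libraries. The study asked how expression goes along with changes of fruit colour.

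The pericarp develops from the ovary wall, and in fleshy fruits it holds most of the pigment that gives a fruit its colour. Fruit colour depends on chlorophyll, carotenoids and anthocyanins, whose levels change as plastids are remodelled and as vacuoles fill with phenolic pigments. Ripening is known to be accompanied by shifts in many transcripts at once, including those of photosynthesis, cell wall remodelling and secondary metabolism. The table names its rows by cluster number and does not pair them with genes, so which of these functions the 134 members serve was not analysed here, and neither were their sequences, genome positions and defining markers of the tissue.

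The selection took 134 of the 17261 rows whose lowest G library reached 5 TPM, or 0.776% of them. Applied to the other periods, the same rule found 42 rows for P, 23 for Y, 22 for B and 14 for R, which were 0.304%, 0.114%, 0.117% and 0.0678% of the rows that reached 5 TPM in all 3 libraries of the period. Libraries differed in how much they detected. Rows above 0 TPM were fewest in P replicate 1, at 97466, and most numerous in P replicate 3, at 187300; they lay between 145724 and 172147 in the G libraries. Read depth cannot be recovered from TPM, so no counting error is given. In RNA from whole tissue, fewer cells of a type and less RNA per cell cannot be told apart.

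**Figure D1:**
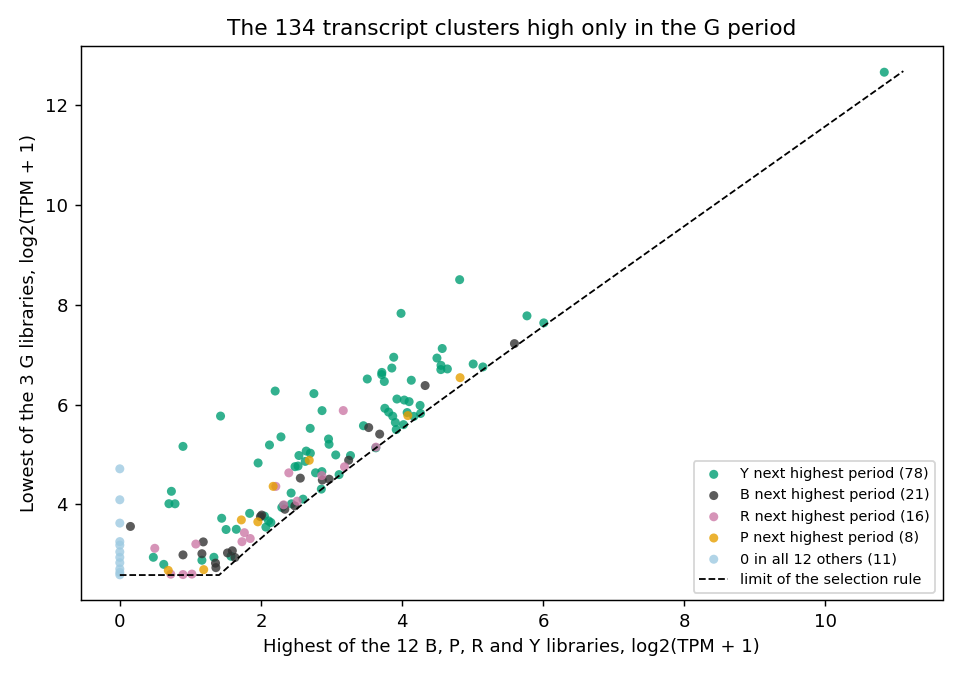
Each point is 1 of the 134 transcript clusters, with the highest of its 12 B, P, R and Y libraries on the horizontal axis and the lowest of its 3 G libraries on the vertical axis, both as log2(TPM + 1). The dashed line is the limit of the selection, the colours show which other period had the next highest mean, and the 11 members at 0 in all 12 other libraries stand at the left edge.

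Members spanned a wide range of levels. Mean TPM over the 3 G libraries ran from 5.92 to 6646, with a median of 32.0. There were 26 members at a mean of 100 TPM or more in G, 42 from 30 to below 100, 45 from 10 to below 30 and 21 below 10. The ratio of the lowest G library to the highest other library had a median of 4.38 over the 123 members that were above 0 in at least 1 other library. It lay from 3 to below 4 for 46 members, from 4 to below 5 for 25, from 5 to below 10 for 37, from 10 to below 30 for 12 and at 30 or more for 3. The median ratio of the G mean to the next highest period mean was 8.63 over the same 123 members, and the smallest was 3.97. Most members were not silent outside G: 23 of the 134 stayed below 1 TPM in every other library, and 46 were above 0 in all 12.

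The limits of the selection cut through a continuous range. Just inside the ratio limit were Cluster-64249.161336 at 3.01, Cluster-64249.153546 at 3.01 and Cluster-64249.182613 at 3.03. Just outside it were Cluster-64249.172524 at 2.96, Cluster-64249.27296 at 2.95 and Cluster-64249.126645 at 2.92. At the TPM minimum, Cluster-64249.323707 and Cluster-64249.379064 were inside with lowest G levels of 5.02 and 5.04 TPM, and Cluster-64249.308266 and Cluster-64249.320215 were outside with 4.94 and 4.88 TPM. A further 137 rows with at least 5 TPM in every G library had a ratio from 2 to below 3, slightly more than the members themselves.

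**Figure D2:**
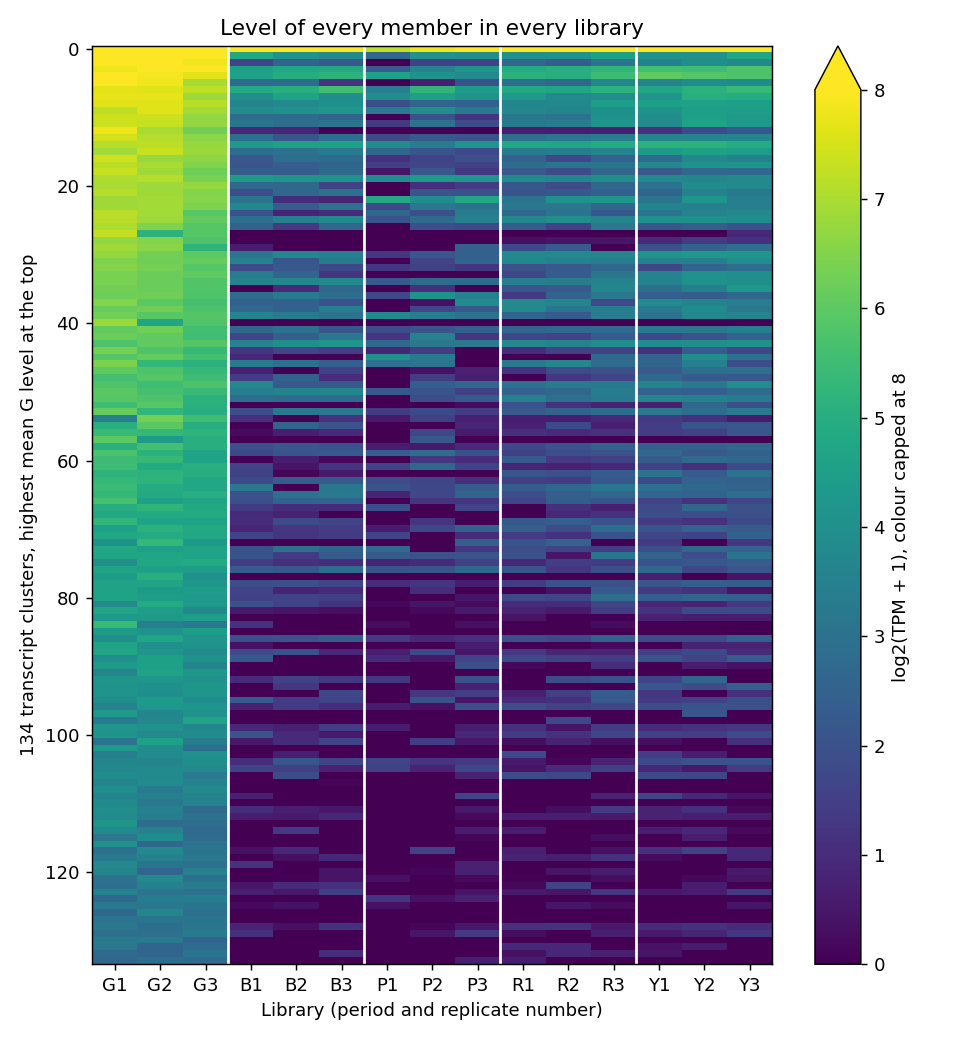
Rows are the 134 members ordered by mean level in G, columns are the 15 libraries, and colour gives log2(TPM + 1) capped at 8. The 3 G columns are bright throughout, as the selection requires, and among the others the 3 Y columns hold the fewest dark cells and P replicate 1 the most.

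One member stood far above the rest. Cluster-64249.114148 was the highest row of the whole table in each G library, at 6919.6, 6517 and 6502 TPM in replicates 1 to 3. In Y it stood at 1438, 1577 and 1824 TPM, and in R at 1055, 1118 and 711 TPM. In B it stood at 740.05, 291 and 289.7 TPM, and in P at 151, 222 and 1010.4 TPM. Its mean was 6646 ± 237 TPM in G, 1613 ± 196 in Y, 961 ± 219 in R, 461 ± 477 in P and 440.1 ± 260 in B (SD, n = 3 each). No library outside G came near the G libraries. By rank within a library it stood from 6 to 14 in Y, from 21 to 53 in R, from 45 to 163 in B and from 33 to 881 in P. The P libraries were uneven, with P replicate 3 several times above the other two. This row alone held 44.5%, 45.3% and 52.4% of the summed TPM of the members in G replicates 1 to 3.

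The next most abundant member was far lower in G. Cluster-64249.118569 stood at 628, 491 and 363 TPM in G replicates 1 to 3, and its 12 other libraries lay between 5.33 TPM in P replicate 1 and 27.2 TPM in B replicate 1. Outside G it was even across periods, with means of 18.7 ± 7.58 TPM in B, 11.9 ± 5.71 in P, 17.8 ± 4.18 in R and 18.8 ± 5.34 in Y (SD, n = 3 each). Cluster-64249.153595 stood at 325, 349 and 227 TPM in G and differed more between the other periods. It measured 10.4, 14.8 and 13.1 TPM in Y, 5.23, 4.17 and 7.33 TPM in R, 2.14, 4.92 and 3.85 TPM in B, and 0, 2.01 and 1.91 TPM in P. Each Y library of it lay above each of the 9 B, P and R libraries.

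Cluster-64249.93656 stood at 219, 347 and 322 TPM in G, at 46.8, 44.4 and 53.6 TPM in Y, and at 28.5, 32.2 and 37.0 TPM in R. Its B libraries held 22.3, 26.4 and 28.0 TPM and its P libraries 4.0, 10.8 and 16.6 TPM, so that the Y libraries again lay above the 9 others. Cluster-64249.126635 had the same order of periods, at 258, 236 and 199 TPM in G, 63.4, 56.5 and 53.8 TPM in Y, 33.4, 30.9 and 43.8 TPM in R, 23.0, 29.8 and 34.8 TPM in B and 22.9, 16.3 and 12.5 TPM in P. It was the second most abundant member in both Y and R. Cluster-64249.26766 stood at 249.8, 227 and 123 TPM in G, at 12.7 ± 1.74 TPM in Y, 7.85 ± 3.27 in R, 4.46 ± 2.70 in B and 1.28 ± 1.72 in P (SD, n = 3 each).

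Another pair of the 8 most abundant members showed no such order. Cluster-64249.223557 stood at 204, 196 and 149 TPM in G, and its other period means were 35.7 ± 10.1 TPM in B, 33.7 ± 7.27 in Y, 28.9 ± 4.01 in R and 22.2 ± 13.8 in P (SD, n = 3 each). It was the second most abundant member in B, where replicate 3 was its highest library outside G at 47.3 TPM. Cluster-64249.37083 stood at 211, 209.7 and 112 TPM in G and at means of 26.0 ± 7.90 TPM in Y, 17.7 ± 5.11 in B, 17.7 ± 4.14 in P and 15.6 ± 3.15 in R (SD, n = 3 each). In both, libraries of all 4 periods overlapped.

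**Figure D3:**
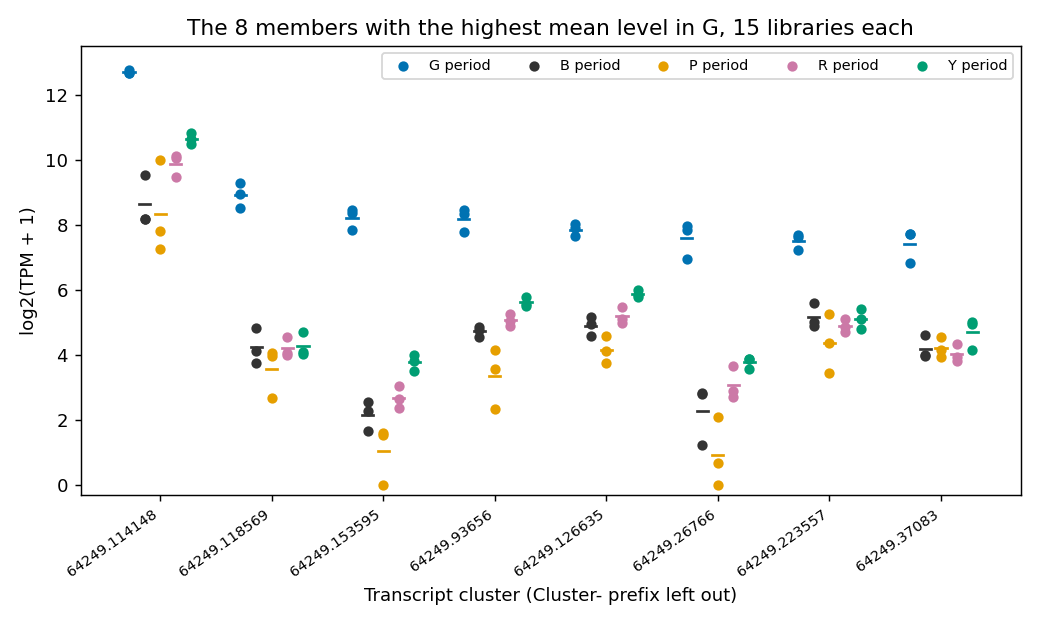
The 8 members with the highest mean level in G, with 1 point for each of 15 libraries as log2(TPM + 1), coloured by period, and a short line at the mean of the 3 log2 values. Cluster-64249.114148 stands apart at the left, Cluster-64249.153595 and Cluster-64249.26766 reach 0 in P replicate 1, and the 3 Y points lie above all B, P and R points for Cluster-64249.114148, Cluster-64249.153595, Cluster-64249.93656 and Cluster-64249.126635.

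The ratio of the lowest G library to the highest other library was 30 or more for 3 members. Cluster-64249.59858 stood at 10.9, 13.7 and 10.8 TPM in G, with 0.11 TPM in B replicate 3 and 0.01 TPM in P replicate 3 as its only values above 0 elsewhere, a ratio of 98.1. Cluster-64249.133091 was uneven within G, at 153, 34.9 and 58.7 TPM, and was listed at 0 in all other libraries except Y replicate 3, where it stood at 0.86 TPM. Cluster-64249.219527 stood at 102, 90.6 and 53.7 TPM in G, at 0.96, 1.69 and 1.21 TPM in Y and at 0.26, 0.37 and 0.33 TPM in R, and was listed at 0 in the 6 B and P libraries. The next by ratio, Cluster-64249.28125 and Cluster-64249.256042, had G means of 19.7 ± 1.64 and 22.2 ± 8.45 TPM (SD, n = 3 each) and highest other libraries of 0.66 and 0.62 TPM, both in Y replicate 1.

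Another 11 members were listed at 0 in all 12 libraries outside G. Their mean G levels ran from 7.27 to 63.6 TPM with a median of 10.5, below the median of all members, and a listed 0 may be a level under what the library could show. Cluster-64249.285105 was the most abundant, at 109, 25.3 and 56.1 TPM in G replicates 1 to 3. Cluster-64249.214047 was even at 20.5, 16.1 and 21.6 TPM, and Cluster-64249.388124 stood at 11.4, 23.7 and 18.0 TPM. Cluster-24024.0 stood at 14.1, 8.55 and 12.5 TPM and Cluster-26469.0 at 12.8, 8.09 and 10.6 TPM.

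The last pair belongs to a small group set apart by its identifiers. Of the 134 members, 131 carry the prefix 64249, which 84.0% of the table and 99.9% of the other rows with at least 5 TPM in every G library also carry. Only 14 rows with another prefix reached 5 TPM in every G library, and 3 of these were members. The third, Cluster-23497.0, whose name was chosen after its values were seen, stood at 18.6, 11.7 and 15.6 TPM in G and at 3.31 TPM in Y replicate 2, and was listed at 0 in the other 11. All 3 had the same order within G, with replicate 1 highest and replicate 2 lowest.

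The G libraries differed in their levels of the members. G replicate 3 was the lowest of the 3 for 84 members, or 62.7%, and for 44.0% of the 17127 other rows with at least 5 TPM in every G library. G replicate 1 was the highest for 78 members, or 58.2%, and for 42.7% of those other rows. The median ratio of replicate 1 to replicate 3 was 1.31 over the members and 1.09 over the other rows, and that of replicate 2 to replicate 3 was 1.27 and 1.09. The spread within G was nevertheless like that of the other rows, with a median coefficient of variation of 23.4% for members and 23.5% for the rest; the selection by the lowest G library limits this spread. Over the members, which are not independent replicates, log2(TPM + 1) correlated at 0.924 between G replicates 1 and 2, 0.938 between 1 and 3 and 0.963 between 2 and 3.

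The most even members in G were Cluster-64249.158768, at 7.28, 7.54 and 7.68 TPM and listed at 0 elsewhere, Cluster-64249.310188, at 27.5, 28.7 and 29.4 TPM, and Cluster-64249.114148. A coefficient of variation of 50% or more was found for 13 members. Cluster-64249.303891 was the most uneven, at 40.5, 9.62 and 8.51 TPM, and G replicate 1 also led in Cluster-64249.133091. Cluster-64249.97163 went the other way, at 10.3 TPM in G replicate 1, 79.5 TPM in replicate 2 and 45.2 TPM in replicate 3.

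Consecutive cluster numbers occurred among the members: 19 of the 134 formed 10 pairs with neighbouring numbers, 3 of them in 1 run from Cluster-64249.251664 to Cluster-64249.251666. Counting neighbours among all rows with at least 5 TPM in every G library, 36 members had one. The share of the other rows with a neighbouring number was not counted. Whether such neighbours are parts or copies of 1 gene that share reads was not analysed here, so their separate levels are uncertain. Some pairs had like levels in each G library, and the examples here were chosen after their values were seen. Cluster-64249.305004 stood at 79.1, 54.0 and 39.9 TPM and Cluster-64249.305005 at 64.4, 54.7 and 38.7 TPM in G replicates 1 to 3. Others did not: Cluster-64249.97162 stood at 219, 124 and 76.4 TPM and was highest in G replicate 1, where its neighbour Cluster-64249.97163 was lowest. Over the 10 pairs, the ratio of the first to the second mean G level ran from 0.450 to 3.11.

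The summed TPM of the members was 1.41% ± 0.159 of a library in G, 0.242% ± 0.0265 in Y, 0.152% ± 0.0137 in R, 0.0942% ± 0.0247 in B and 0.0791% ± 0.0519 in P (SD, n = 3 each). Without Cluster-64249.114148 the order was the same, at 0.747% ± 0.140 in G, 0.0805% ± 0.00806 in Y, 0.0560% ± 0.00841 in R, 0.0502% ± 0.00207 in B and 0.0330% ± 0.00682 in P (SD, n = 3 each). The 3 Y libraries lay above the 9 B, P and R libraries in both sums, and the B and R libraries overlapped in the second, though not in the first. P replicates 1 to 3 held 402, 591 and 1379.5 TPM in the first sum and 251, 369 and 369 TPM in the second.

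**Figure D4:**
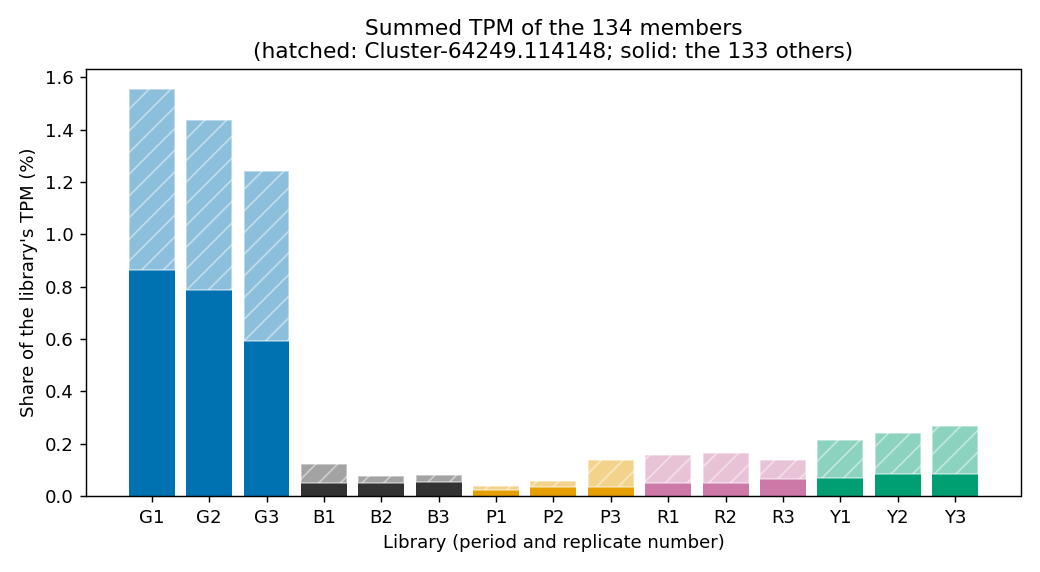
Bars give the summed TPM of the 134 members as a percentage of each library's total, with Cluster-64249.114148 hatched and the 133 other members solid. The G libraries reach 1.24% to 1.56%, and among the other 12 the Y libraries are the highest at 0.215% to 0.268%.

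Outside G, the members were most often highest in Y. Y had the next highest mean for 78 of the 123 members above 0 elsewhere, or 63.4%, against 42.3% of the 17127 other rows with at least 5 TPM in every G library. B was next for 21 members, or 17.1% against 24.8% of the other rows, R for 16, or 13.0% against 24.2%, and P for 8, or 6.50% against 8.75%. The median of the members' means was 2.92 TPM in Y, 1.97 in R, 1.49 in B and 0.967 in P. For 21 of the 134 members, or 15.7%, all 3 Y libraries lay above the 9 B, P and R libraries, against 10.1% of the 17261 rows with at least 5 TPM in every G library. The 3 libraries of R, of B and of P lay above their 9 counterparts for 1 member each, against 3.03%, 2.84% and 0.95% of those rows. The single most frequent order of the means was Y over R over B over P, found for 32 members, or 23.9%, and for 20.2% of the other rows.

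These 4 periods were compared with limma on log2(TPM + 1) over 120432 rows that reached 1 TPM in at least 3 of the 12 libraries, with Benjamini-Hochberg adjustment over all of them. There were 97 members among these rows, and 37 were too low to be tested; 1 of the 97 reached 1 TPM in libraries of a single period. The members tested were more abundant than the rest, with a median mean of 3.51 TPM over the 12 libraries against 1.77 for all rows tested. Expression differed among B, P, R and Y for 22 of the 97 members at an adjusted p under 0.05, or 22.7%, against 5.44% of all rows tested (limma moderated F test). The count was between 10 and 14 without P replicate 1 (14), any of the R replicates (13, 14 and 14 for 1, 2 and 3) or any of the Y replicates (12, 10 and 10), and with the replicate number as a block it was 14.

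The Y period against the P period gave the most calls. Of the 97 members, 32 were higher in Y and none was lower, or 33.0% higher against 4.01% of all rows tested (limma, adjusted p under 0.05). Among the more abundant rows, those with a mean of at least 5 TPM over the 12 libraries, 26 of 39 members were higher in Y, or 66.7%, against 12.7% of 33404 rows. The median difference over the 97 members was 1.01 on the log2(TPM + 1) scale, against 0.27 over all rows tested, and 89 of the 97 differences were positive, or 91.8%, against 62.9% of all rows tested. Fewer members were called without Y replicate 2 or 3, at 16 each, and without P replicate 1, at 20.

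The members with the largest difference between Y and P held their call in every alternative fitted. Cluster-64249.94709 stood at 82.8, 73.0 and 65.8 TPM in G and at 11.0, 16.2 and 14.9 TPM in Y, and was listed at 0 in all 3 P libraries; it was higher in Y by 3.89 ± 0.52 on the log2(TPM + 1) scale (SE; limma, adjusted p = 0.00168, from 0.000326 to 0.0123 over the alternatives), a size that depends on the added 1 since the P values are 0. Cluster-64249.304774 stood at 171, 166 and 103 TPM in G, at 14.3, 22.4 and 19.0 TPM in Y and at 0, 2.95 and 1.34 TPM in P. Its difference was 3.20 ± 0.47 (SE; limma, adjusted p = 0.00288, from 0.000974 to 0.0216). The Y and P libraries did not overlap in either.

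Of the 8 most abundant members, 5 were called higher in Y than in P. Cluster-64249.153595 was higher by 2.73 ± 0.45 (SE; limma, adjusted p = 0.00551), Cluster-64249.93656 by 2.28 ± 0.37 (adjusted p = 0.00502) and Cluster-64249.126635 by 1.73 ± 0.25 (adjusted p = 0.00254), and all 3 held in the 19 alternatives. Cluster-64249.26766 was higher by 2.85 ± 0.57 (SE; limma, adjusted p = 0.0151), with an adjusted p of 0.0503 without P replicate 2, 0.0610 without Y replicate 2 0.0542 without Y replicate 3 and 0.0502 with no filter. Cluster-64249.114148 was higher by 2.31 ± 0.59 (SE; limma, adjusted p = 0.0452), a call lost in 14 of 19 alternatives, with an adjusted p up to 0.141 without P replicate 1. Leaving out any library but B replicate 1 or P replicate 3 ended it, and so did the replicate block, at 0.0817. The other 3, Cluster-64249.118569, Cluster-64249.223557 and Cluster-64249.37083, differed by 0.71 ± 0.40, 0.74 ± 0.39 and 0.50 ± 0.30 (SE; limma, adjusted p = 0.369, 0.326 and 0.397).

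**Figure D5:**
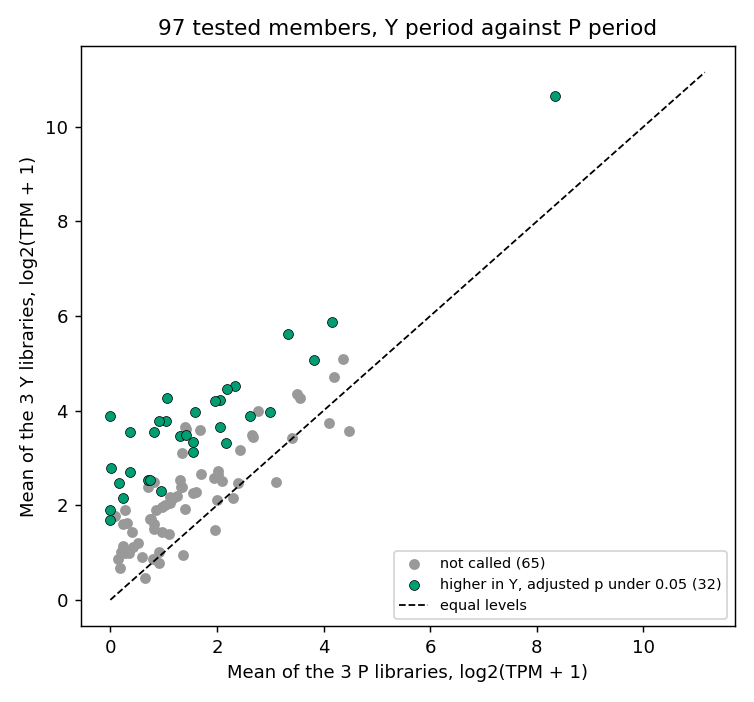
Each point is 1 of the 97 members tested, with the mean of its 3 P libraries on the horizontal axis and the mean of its 3 Y libraries on the vertical axis, as log2(TPM + 1); the 32 coloured points were higher in Y at an adjusted p under 0.05. Most points, called or not, lie above the dashed line of equal levels.

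The P libraries also held fewer rows at all in replicates 1 and 2. Members listed at 0 numbered 73 in P replicate 1, 53 in P replicate 2 and 34 in P replicate 3, against 38 to 41 in B, 29 to 32 in R and 26 to 27 in Y. Of the other rows with at least 5 TPM in every G library, 11.2%, 6.69% and 1.74% were at 0 in P replicates 1 to 3, against 0.993% to 3.62% in the B, R and Y libraries. The part of this in the differences from P was not tested. Rescaling by the median ratio moved the median difference over all rows by -0.16 for Y against P. Of the 95 members then tested, 24 were called higher in Y and 0 lower. Of all 118341 rows then tested, 4.28% were called in either direction.

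R against P had 13 members higher and none lower, or 13.4% against 2.73% of all rows tested that were higher (limma, adjusted p under 0.05). The median difference was 0.72 over the 97 members and 0.31 over all rows tested. Its sign was positive for 79.4% of the members and 65.8% of all rows tested. No share among rows with a mean of at least 5 TPM is given for R against P. This comparison shares the P libraries with the one before it. The 2 largest differences were in Cluster-64249.94709, at 2.31, 4.01 and 7.75 TPM in R, by 2.39 ± 0.52 (SE; limma, adjusted p = 0.0300), and Cluster-64249.304774, at 8.21, 6.99 and 15.8 TPM in R, by 2.35 ± 0.47 (SE; limma, adjusted p = 0.0202). The first call was lost without P replicate 1 or 2 or R replicate 2 or 3 (adjusted p = 0.0747, 0.0712, 0.0914 and 0.109; limma) and under the replicate block (0.0706), and the second without R replicate 1 or 3 (0.0608 and 0.0795) and with a pseudocount of 0.1 (0.0679). With no filter both were lost (0.0979 and 0.0692). The count was 8 and 6 without P replicates 1 and 2, 5, 4 and 2 without R replicates 1, 2 and 3, 8 without Y replicate 1, 2 or 3, and 7 under the replicate block. It was also 7 after rescaling by the median ratio, of 95 members then tested, where 2.58% of all rows were called in either direction.

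Y against B had 7 members higher and none lower, or 7.22% against 2.23% of all rows tested that were higher (limma, adjusted p under 0.05). Among rows with a mean of at least 5 TPM the share was closer to the background, with 4 of 39 members higher, or 10.3%, against 6.34%. The 2 largest differences were in Cluster-64249.239816 and Cluster-64249.220546. Cluster-64249.239816 stood at 43.4, 40.0 and 23.9 TPM in G, 3.77, 5.84 and 5.05 TPM in Y and 0, 0.56 and 0.13 TPM in B, a difference of 2.27 ± 0.44 (SE; limma, adjusted p = 0.0158). Cluster-64249.220546 stood at 144, 117 and 59.9 TPM in G, 7.29, 10.6 and 12.5 TPM in Y and 3.02, 0.72 and 0.92 TPM in B, a difference of 2.20 ± 0.45 (SE; limma, adjusted p = 0.0215).

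Neither Y against B difference held in every alternative. The call of Cluster-64249.239816 was lost without B replicate 3, Y replicate 2 or Y replicate 3 (adjusted p = 0.0561, 0.0722 and 0.0585; limma) and with a pseudocount of 0.1 (0.0593). That of Cluster-64249.220546 was lost without B replicate 2 or 3 or Y replicate 1, 2 or 3 (0.0850, 0.0784, 0.0507, 0.0816 and 0.0830) under the replicate block (0.0504) and with no filter (0.0742). The count of 7 became 3 and 4 without B replicates 2 and 3, 3, 2 and 1 without Y replicates 1, 2 and 3, and 4 under the replicate block, and rose to 11 without P replicate 1.

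P against B had 2 members lower and none higher, or 2.06% against 0.562% of all rows tested that were lower (limma, adjusted p under 0.05). Cluster-64249.283418 stood at 3.61, 3.23 and 1.88 TPM in P and 9.91, 11.3 and 11.8 TPM in B. The difference was -1.65 ± 0.31 (SE, limma, adjusted p = 0.0390, up to 0.152 over the alternatives). Its lowest adjusted p, 0.0224, came from the limma fit on all 15 libraries. That fit uses the G libraries by which members were chosen. B was the next highest period of Cluster-64249.283418, and G stood at 60.5, 48.6 and 41.5 TPM. Cluster-64249.48255 stood at 2.87, 5.04 and 4.61 TPM in P and 11.8, 13.1 and 15.2 TPM in B, a difference of -1.49 ± 0.27 (SE; limma, adjusted p = 0.0337, from 0.0187 to 0.136). The first call was lost in 11 of 12 leave-outs and the second in 9, and both were lost under the replicate block (0.0902 and 0.0611). The count of 2 was 0 without B replicate 2, P replicate 1 or 2, R replicate 1 or 2 or any Y library and under the replicate block, and 1 without B replicate 3. Without B replicate 1 it was 4, of which 3 were lower and 1, Cluster-64249.71534, was higher in P. That member, chosen here after its values were seen, missed the threshold in the fit as reported (log2 difference 2.82, adjusted p = 0.0554; limma). It was called higher in P with a mean of at least 5 TPM (adjusted p = 0.0373; limma) and after rescaling by the median ratio (0.0335), where it was the only call. The fit on all 15 libraries also called it (0.0323; limma), but that fit uses the G libraries by which members were chosen. The 2 lower calls were lost after rescaling (0.0785 and 0.0716).

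No member was called between R and B or between Y and R (limma, adjusted p under 0.05), where 1.68% and 0.284% of all rows tested were called. At an unadjusted p under 0.05 there were 9 of 97 for R against B and 18 of 97 for Y against R. The share of all rows tested under that limit was not counted, so these counts cannot be set against it. The median difference was 0.05 for R against B and 0.44 for Y against R, and 83 of the 97 members had a positive sign for Y against R, or 85.6%, against 47.0% of all rows tested. Without B replicate 1, Cluster-64249.304130 and Cluster-64249.71534 were called higher in R than in B, and without B replicate 2, Cluster-64249.68878 was called higher in Y than in R; these names were chosen after their values were seen.

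P was the next highest period for 8 members. The one of them with the highest mean in P, Cluster-64249.71534, the second most abundant member in P, stood at 27.3, 13.7 and 25.9 TPM there and at 116, 119 and 92.2 TPM in G. It measured 7.20, 16.0 and 17.0 TPM in R, 7.43, 17.5 and 9.67 TPM in Y and 7.63, 1.05 and 0.79 TPM in B. Its P libraries overlapped those of R and Y, and the difference of Y from P was -0.92 ± 0.59 on the log2(TPM + 1) scale (SE; limma, adjusted p = 0.433).

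Some rows outside the selection had a profile over the 15 libraries like the mean of the members, which the G libraries dominate. Among 33520 rows that were not members and had a mean of at least 5 TPM in G, the 3 that correlated best over the 15 libraries with the members' mean log2(TPM + 1) were Cluster-64249.101592, Cluster-64249.329275 and Cluster-64249.172524, at a Pearson correlation of 0.987, 0.980 and 0.978. They differed from each other outside G: Cluster-64249.329275 was listed at 0 in all P and R libraries, and Cluster-64249.172524 measured 14.7 ± 2.96 TPM in B and 12.1 ± 0.614 TPM in R (SD, n = 3 each). The first 2 had G means of 28.7 ± 3.79 and 6.25 ± 2.40 TPM (SD, n = 3 each). Cluster-64249.101592 missed the ratio limit at 2.70, Cluster-64249.329275 the TPM minimum at 4.86 TPM and Cluster-64249.172524 the ratio limit at 2.96.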

How the data were processed

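TPM values as deposited by the authors were used, per the table's name. Assembler, aligner and quantifier: not given in the sources used here. Mouse genome builds are named in the submitters' processing notes, although the samples are of a plant, so which reference lies behind the TPM values is unknown. All 15 columns matched a library by title. The members and lists were chosen with earlier results of these data known. For B, P, R and Y, limma 3.58.1 (R 4.3.3) was fitted to log2(TPM + 1) of 12 libraries, with 8 residual degrees of freedom and a variance prior that follows mean expression, for rows at 1 TPM or more in at least 3 libraries; the scale understates changes of low rows. Benjamini-Hochberg adjustment covered all rows of a comparison, with calls at 0.05. The fit was also run on simulated data, with changes added only to rows more abundant than most members tested. That run does not show how well changes at the levels of most members are found.

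The transcript clusters named were, by a fixed rule, the 8 with the highest G mean, the 5 with the largest ratio, the 5 highest among those at 0 elsewhere, those next to each limit, the 2 largest called differences per direction and comparison, the 3 most and 3 least even in G, the 2 most abundant in each other period and the 3 most similar rows outside the selection; exceptions are marked. Alternatives changed the pseudocount, filter, scaling, variance prior, libraries fitted and limits of the selection, added the replicate number as a block, or left out 1 library at a time. They include a fit on all 15 libraries, which uses the G libraries by which members were chosen. A call kept in that fit is not independent of the selection. No 2 libraries held identical values.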

Additional observations from a re-analysis of the deposited data

How the results depend on the processing

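The number of members depends on the limits: 311 with a minimum of 1 TPM, 271 with a ratio of 2, 63 with a ratio of 5 and 4703 with the mean of the G libraries in place of the lowest. Leaving out 1 library gave 135 to 368, and 324, 312 and 368 came without G replicates 2, 3 and 1, since the lowest of fewer G libraries is a weaker demand. The filter was applied anew in each leave-out, so that 93 to 97 members were tested. Leave-outs gave 10 to 27 called among B, P, R and Y, 0 to 4 for P against B and 0 to 2 for R against B. They gave 1 to 11 for Y against B, 2 to 17 for R against P, 16 to 35 for Y against P and 0 to 1 for Y against R. A pseudocount of 0.1 gave 14 among the 4 periods and 4 for Y against B. No filter adds many low rows to the adjustment, with 123 members and 389112 rows tested. It gave 9 among the 4 periods, 0 for P against B, 2 each for Y against B and R against P, and 17 for Y against P. The share of all rows called was not counted there. A mean of at least 5 TPM, with 39 members and 33404 rows tested, gave 5 for P against B, 4 of them lower, and 4 for Y against B. The share of all those rows called for P against B is not given. Median-ratio scaling, with 95 members tested, gave 7 for R against P and 1 for P against B. The latter call was higher in P where the 2 main calls were lower. Without a variance trend P against B gave 0. A fit on all 15 libraries tested all 134 members, since the G libraries, where members were chosen to be high, then count toward the filter. It gave 6 for P against B, 5 of them lower, and 1 for Y against R. These counts are not independent of the selection. The share of all 138664 rows called in that fit was not counted.

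No pairing of the libraries by replicate number was visible. Deviations of same-numbered libraries from their period means correlated between -0.030 and 0.019 over 18 pairs. None of 12 libraries correlated best with its own number. A small shared effect could be missed in this way. With the replicate block the counts were 14 among the 4 periods, 0 for P against B, 4 for Y against B and 7 for R against P. Of 303 fits of 16 named differences, 236 stayed on their side of the threshold, 67 lost the call and 0 turned. Those that stayed include every fit of Y against P for Cluster-64249.118569, Cluster-64249.223557 and Cluster-64249.37083, which were not called in the main fit. The cause of the losses was not tested. Read depth is unknown, so no limit of detection is given.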
